A study of Homo sapiens with 2 samples.

Results

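The 4 human HOX clusters, HOXA on chromosome 7, HOXB on chromosome 17, HOXC on chromosome 12 and HOXD on chromosome 2, were compared between RT-R-MDA-MB-231 and MDA-MB-231 cells. Members were taken by symbol: every gene whose name is HOXA, HOXB, HOXC or HOXD followed by a digit, together with the long noncoding RNAs HOTAIR, HOTAIRM1 and HOTTIP. This gave 46 of the 24462 gene symbols in the count tables, of which 39 were the HOX protein genes and 7 were antisense, read-through or long noncoding RNAs. No member was on more than 1 row of the tables.

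RT-R-MDA-MB-231 is a radiotherapy-resistant derivative of the triple negative breast cancer line MDA-MB-231. It had received X-rays in doses of 2 Gy up to 50 Gy in all. The parental MDA-MB-231 cells were grown in the same RPMI medium with 10% serum. Each line was represented by 1 library of 3' tags from total RNA, with 10014804 counts for RT-R and 9255008 counts for parental cells, so differences between the lines have no replicate check and are given without p-values. The resistant line is named as a single derivative, and whether it is 1 clone is not stated in the labels. The mesenchymal markers VIM (8454 counts in RT-R and 4310 in parental cells) and AXL (9663 and 6995) were abundant in both lines. The 7 luminal markers looked for summed to 6193 counts in RT-R and 6809 in parental cells. Of these, KRT18 (2816 and 2525) and KRT19 (2585 and 3484) were abundant as well, while FOXA1 had 7 and 11 counts. ESR1 and PGR were at or near 0, with 1 and 0 counts for ESR1 and 0 in both lines for PGR, while ERBB2 had 174 counts in RT-R and 230 in parental cells. Of 5 fibroblast markers, summing to 108 counts in RT-R and 111 in parental cells, 0 were called higher and 1 (PDGFRB, 28 and 52 counts) lower by the rule given below for HOX genes, a call lost under total-count (log2 ratio -0.99) and upper-quartile scaling (-0.998) and with a pseudocount of 5 (-0.93); of 3 leukocyte markers, 1 was measured. DCN, PTPRC and CD3E were at 0 in both lines and CD14, called higher, had 39 counts in RT-R against 14 in parental cells. The part of these markers in the HOX values was not tested.

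HOX genes encode homeodomain transcription factors that give cells their position along the head-to-tail axis of the embryo. They lie in clusters in the order in which they act: paralog groups 1 to 3 sit at the 3' end and pattern anterior structures, groups 4 to 8 are central, and groups 9 to 13 sit at the 5' end and pattern posterior structures. Genes with the same number in different clusters are paralogs, copies of 1 ancestral gene. Adult cells, breast epithelium included, keep part of this embryonic pattern, which is held in place by trithorax proteins that maintain active genes and polycomb proteins that silence others.

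The homeoboxes of HOXB9, its paralog HOXC9 and HOXB7 are shown because HOXB9 held most HOX counts and HOXB7 differed most among the measured genes. Each is the 180-base stretch of coding sequence for the 60-residue homeodomain, 5' to 3', from GENCODE release 29 transcripts. Capitals mark the 18 bases for the WFQNRR stretch of the third helix, which enters the major groove of DNA and by which the homeodomain was located in all 39 genes.
HOXB9: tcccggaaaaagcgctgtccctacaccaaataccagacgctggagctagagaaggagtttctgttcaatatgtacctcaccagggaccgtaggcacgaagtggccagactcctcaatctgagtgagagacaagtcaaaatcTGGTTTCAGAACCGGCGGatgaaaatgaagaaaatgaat
HOXC9: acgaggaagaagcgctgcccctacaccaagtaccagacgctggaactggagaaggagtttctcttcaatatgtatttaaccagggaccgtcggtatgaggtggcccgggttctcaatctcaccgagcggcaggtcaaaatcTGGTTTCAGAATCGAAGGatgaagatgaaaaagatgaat
HOXB7: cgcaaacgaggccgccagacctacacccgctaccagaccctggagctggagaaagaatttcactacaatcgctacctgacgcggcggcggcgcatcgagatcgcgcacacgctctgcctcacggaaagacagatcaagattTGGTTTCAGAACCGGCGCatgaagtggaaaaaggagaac

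The homeoboxes of HOXB9 and HOXC9 were identical at 148 of 180 bases (82.2%) and encoded 56 identical residues of 60. Over all 42 pairs of the same paralog group the median identity was 81.7%, against 61.4% over 172 pairs of the same cluster. Exceptions were found among neighbours of the central groups: for example, HOXB6 and HOXB7 had 88.9% identity, against 82.8% between HOXB6 and HOXC6. A 3' tag library reads the 3' end of the transcript, where these genes differ. In the last 300 bases of the transcripts of the 11 measured genes and HOXB8, the longest run of bases shared by any of the 66 pairs was 14, between HOXC8 and HOXC9. HOXB4 ends within exons of HOXB3 on the same strand in the GENCODE annotation, and HOXD3 ends opposite HAGLR, so counts of HOXB4 and HOXD3 are uncertain. The ends of HOXD1, HOXD3 and HOXD4 also overlap other annotated RNAs.

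RT-R cells held more HOX transcripts than parental cells, and the added counts came mainly from HOXB. The 46 members had 1272 counts together in RT-R and 650 in parental cells, a ratio of 1.75 (95% counting interval 1.60 to 1.93) after the libraries were scaled by TMM, the trimmed mean of M values. HOXB9, a posterior gene, held most of the RT-R counts, and without it the sum was 473 against 335 counts, a ratio of 1.27 (1.10 to 1.46). In bulk RNA, more cells with a transcript and more transcript per cell cannot be told apart. All intervals cover counting error within these libraries only, and tags amplified by PCR are not independent molecules.

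Members that reached 20 counts in either library were taken as measured. They numbered 11 of 46: HOXB3, HOXB4, HOXB5, HOXB7 and HOXB9, HOXC6, HOXC8 and HOXC9, and HOXD1, HOXD3 and HOXD4. All 11 had 20 counts or more in RT-R, and 6 of them (HOXB4, HOXB9, HOXC6, HOXC8, HOXC9 and HOXD4) also did so in parental cells. Another 5 members reached 4 to 19 counts, 8 reached 1 to 3 and 22 had no count in either library. With 3 counts as the limit that a count of 0 allows, an undetected member lies under 0.300 CPM (the count per library total, on the usual per-million scale) in RT-R and under 0.324 CPM in parental cells.

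A measured gene was called different when its scaled ratio was at least 2-fold and the interval lay on one side of 1. By this rule 3 members were higher in RT-R (HOXB5, HOXB7 and HOXB9), 1 was lower (HOXC8) and 7 were not called. Over all 12644 measured genes, 6.89% were called higher and 3.97% lower. Genes with few counts were called more often: among 3250 measured genes with at most 100 counts in both libraries, 15.9% were called higher and 7.38% lower. Of the 10 measured members in that range, that is, all but HOXB9, 2 were higher and 1 was lower, which is near those shares. The median log2 ratio of the 11 measured members was 0.62, against -0.01 over all measured genes and 0.09 over the genes with few counts. All 11 reached 20 counts in RT-R but only 6 in parental cells. HOXB3, HOXB5, HOXB7, HOXD1 and HOXD3 were thus measured through RT-R alone, where they were higher. This favours calls of higher and a median above 0, so neither is read as a shift of the members.

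**Figure D1:**
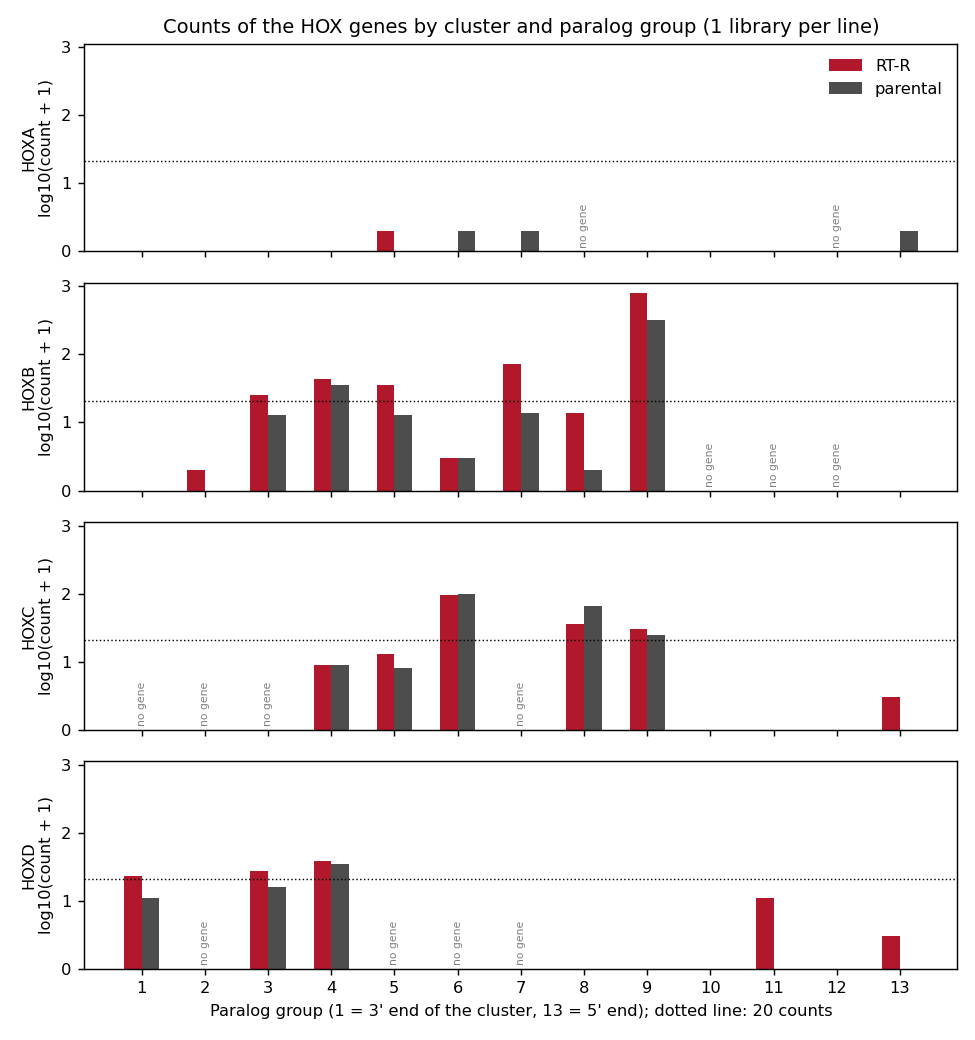
Counts of each HOX protein gene as log10(count + 1) in RT-R (red) and parental cells (grey), by cluster (panels) and paralog group (horizontal axis, 3' end at the left), with a dotted line at 20 counts. HOXA is almost empty in both lines, HOXB9 is the tallest pair, and from group 10 on only traces appear.

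HOXA was almost silent in both lines. Its 16 rows, which include HOTAIRM1 and HOTTIP at the 2 ends of the cluster, summed to 1 count in RT-R and 3 in parental cells. HOXA5 had the RT-R count, and HOXA6, HOXA7 and HOXA13 had 1 parental count each. HOXA9, HOXA10 and HOXA11, posterior genes that pattern limbs and the reproductive tract, and the more anterior HOXA2, HOXA3 and HOXA4 had no count in either line. The antisense RNAs HOXA10-AS and HOXA11-AS and the read-through HOXA10-HOXA9 also had none. A difference between the lines was not detectable for any HOXA member at this depth.

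Genes on both sides of HOXA were measured. The nearest were SKAP2, with 182 counts in RT-R and 146 in parental cells, and HIBADH, with 215 and 87. The 30 nearest measured neighbours had a median log2 ratio of -0.12.

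HOXB was the cluster with the most counts in both lines, and it was higher in RT-R. Its 10 genes summed to 988 counts in RT-R and 389 in parental cells, a ratio of 2.28 (2.02 to 2.57). HOXB took 77.7% of all HOX counts in RT-R (exact Clopper-Pearson interval 75.3% to 79.9%) against 59.8% in parental cells (56.0% to 63.6%). The difference was as large without HOXB9: the other 9 genes summed to 189 counts in RT-R and 74 in parental cells, a ratio of 2.29 (1.74 to 3.04).

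**Figure D2:**
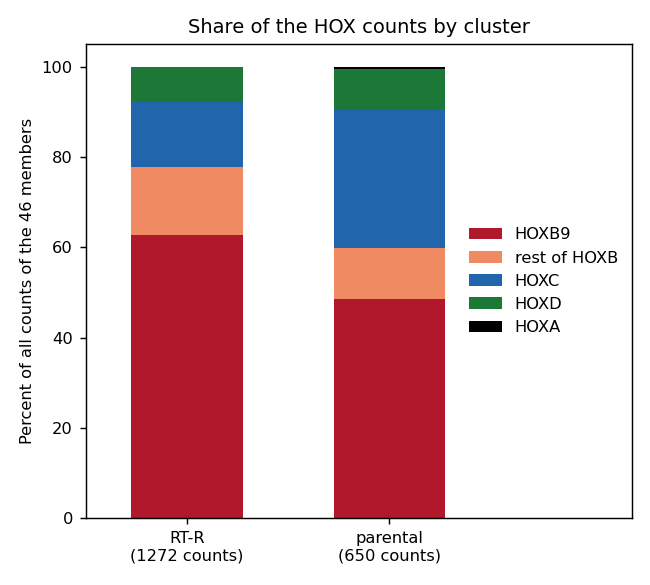
Stacked bars of the percent of all HOX counts taken by HOXB9, the rest of HOXB, HOXC, HOXD and HOXA, in RT-R (left, 1272 counts) and parental cells (right, 650 counts). HOXB together takes 77.7% in RT-R and 59.8% in parental cells, and HOXC 14.5% and 30.6%.

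At the anterior end of HOXB, HOXB1 had no count in either line and HOXB2 had 1 count in RT-R and 0 in parental cells. Both act in hindbrain patterning. HOXB3 had 24 counts in RT-R and 12 in parental cells, a ratio of 1.79 (0.863 to 3.94) with an interval that includes 1. HOXB4, known for its role in blood stem cell expansion, had 42 counts in RT-R and 34 in parental cells, a ratio of 1.11 (0.688 to 1.80). The anterior and early central part of the cluster thus held low counts in both lines, with no gene called.

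The genes called higher lay among the next ones toward the 5' end. HOXB5 had 35 counts in RT-R and 12 in parental cells and was 2.62-fold higher (1.33 to 5.53). HOXB6 had 2 counts in each line. HOXB7, which has been studied in breast cancer cells for effects on growth and epithelial to mesenchymal transition, had 72 counts in RT-R and 13 in parental cells and was 4.97-fold higher (2.73 to 9.77). It was the only measured member past 4-fold. HOXB8 had 13 counts in RT-R and 1 in parental cells, a ratio of 11.7 with a wide interval (1.75 to 495). It stayed under the minimum of 20 counts and was therefore not called. The trace of HOXB6 thus lay between HOXB5 and HOXB7, which were both called higher.

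HOXB9, which in mice patterns the thoracic skeleton and takes part in mammary gland development, had 799 counts in RT-R and 315 in parental cells and was 2.27-fold higher (1.99 to 2.60). These are 79.8 CPM in RT-R and 34.0 CPM in parental cells. Of all measured genes, 79.2% had fewer counts than HOXB9 in RT-R and 58.8% in parental cells. HOXB9 alone took 62.8% of all HOX counts in RT-R (60.1% to 65.5%) and 48.5% in parental cells (44.6% to 52.4%). Since a 3' tag protocol counts transcript ends, levels of different genes are set side by side here in CPM without a length correction. The most abundant member after HOXB9 was HOXC6 in both lines, with 9.49 CPM in RT-R and 10.4 CPM in parental cells. HOXB13, at the far 5' end and separated from HOXB9 by a long stretch, had no count in either line.

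By position class, differences between the HOXB sums were not detectable at these counts: groups 4 to 8 had a ratio of 2.37 (1.76 to 3.23), groups 9 to 13, in which HOXB9 held all counts, 2.27, and groups 1 to 3 had 1.87 (0.904 to 4.08). The ratio of ratios does not depend on library scaling. It was 1.27 for central over anterior genes (0.545 to 2.81) and 0.959 for groups 9 to 13 over central genes (0.684 to 1.33). For single genes within HOXB, HOXB7 over HOXB4 gave 4.44 (2.02 to 10.3) and HOXB9 over HOXB4 2.05 (1.24 to 3.37). HOXB5 over HOXB4 gave 2.34 (1.002 to 5.76) and HOXB7 over HOXB9 2.18 (1.18 to 4.36). These 4 pairs were picked by hand, their intervals are not adjusted, and HOXB4 counts are uncertain. Each pair puts a gene already called higher first, so the pairs give no separate support for a difference within HOXB.

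**Figure D3:**
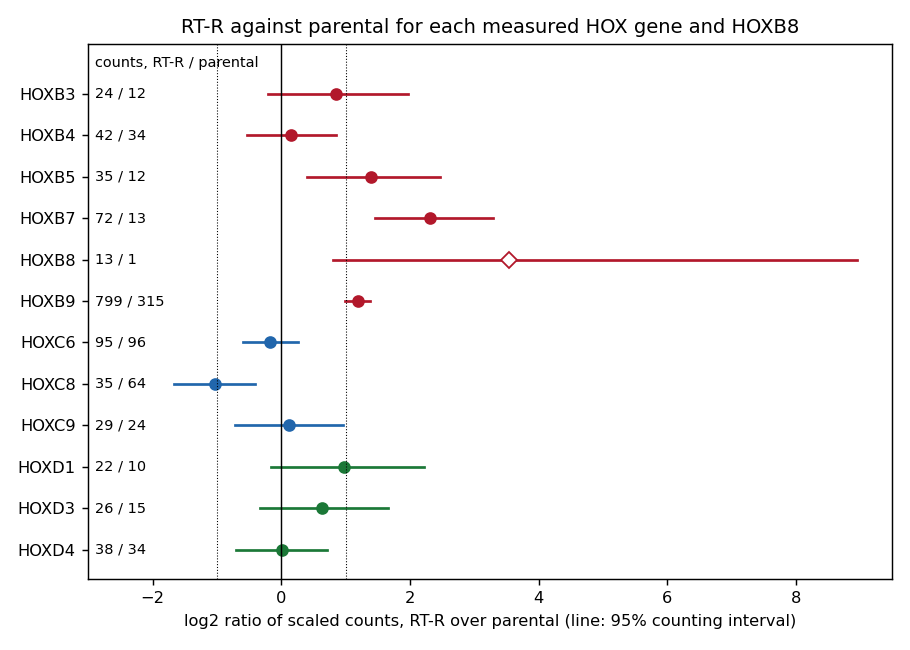
Log2 ratio of scaled counts, RT-R over parental, for the 11 measured genes (filled circles) and HOXB8 (open diamond, under 20 counts), with 95% counting intervals as lines and the counts of RT-R and parental cells at the left. Dotted lines mark 2-fold. HOXB5, HOXB7 and HOXB9 lie right of 0 with their whole interval, and HOXC8 lies left of 0.

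HOXC did not share the shift of HOXB. Its 11 rows summed to 185 counts in RT-R and 199 in parental cells, a ratio of 0.834 (0.679 to 1.02), and its share of all HOX counts was 14.5% in RT-R (12.7% to 16.6%) against 30.6% in parental cells (27.1% to 34.3%). HOXC6, a central gene, had 95 counts in RT-R and 96 in parental cells, a ratio of 0.887 (0.661 to 1.19). HOXC4 had 8 counts in each line and HOXC5 had 12 in RT-R and 7 in parental cells. Both stayed under 20 counts.

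HOXC8, a central gene with roles in the thoracic skeleton and motor neurons of mice, had 35 counts in RT-R and 64 in parental cells and was 2.04-fold lower (1.33 to 3.17). It was the only member called lower, and it lay at the threshold: scaled by total counts its log2 ratio was -0.97 and by the upper quartile -0.98, both short of 2-fold. HOXC9 had 29 counts in RT-R and 24 in parental cells, a ratio of 1.08 (0.609 to 1.94). The posterior end was empty or nearly so. HOXC10, HOXC11, HOXC12 and the antisense RNA HOXC13-AS had no count, and HOXC13 had 2 counts in RT-R and 0 in parental cells.

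HOTAIR, the antisense RNA between HOXC11 and HOXC12 that is known for binding polycomb complexes and for its link to breast cancer metastasis, had 4 counts in RT-R and 0 in parental cells. A difference was not detectable at these counts, since the interval of the ratio (from 0.592 upward) includes 1. It was the only one of the 7 noncoding members with any count.

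HOXD held few counts and had no called gene. Its 9 genes summed to 98 counts in RT-R and 59 in parental cells, a ratio of 1.49 (1.07 to 2.09). The anterior gene HOXD1 had 22 counts in RT-R and 10 in parental cells, a ratio of 1.97 (0.896 to 4.67). HOXD3 had 26 in RT-R and 15 in parental cells, a ratio of 1.55 (0.793 to 3.16), and HOXD4 had 38 in RT-R and 34 in parental cells, a ratio of 1.002 (0.614 to 1.64). None of these intervals excludes equal expression. HOXD8, HOXD9, HOXD10 and HOXD12 had no count in either line.

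HOXD11, a posterior gene of limb and kidney patterning in mice, had 10 counts in RT-R and 0 in parental cells. Its ratio was 2.99 with 3 counts taken for the parental 0, and its counting interval began at 2.01, but it lay under the minimum of 20 counts. HOXD13 had 2 counts in RT-R and 0 in parental cells. Over all clusters, the 12 genes of groups 10 to 13 summed to 14 counts in RT-R and 1 in parental cells, a ratio of 12.6 (1.91 to 531), with 10 of the 14 from HOXD11.

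Set side by side, the clusters differed in their ratios. HOXB over HOXC gave a ratio of ratios of 2.73 (2.15 to 3.47), and without HOXB9 the value was 2.74 (1.94 to 3.90). HOXB over HOXD gave 1.53 (1.06 to 2.18), with an interval that includes 1 without HOXB9 (1.54, 0.987 to 2.39). HOXC over HOXD gave 0.560 (0.375 to 0.832). Of 10 ratios between sums, 6 had intervals that exclude 1. The 10 include ratios between position classes within HOXB, of which none excludes 1. These ratios reuse the same counts, and their intervals are not adjusted.

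By position over all clusters, groups 9 to 13 summed to 842 counts in RT-R and 340 in parental cells, a ratio of 2.22 (1.96 to 2.53), of which HOXB9 was the greater part. Without HOXB9 they had 43 counts in RT-R and 25 in parental cells, a ratio of 1.54 (0.921 to 2.63). Groups 4 to 8 had 353 counts in RT-R and 273 in parental cells, a ratio of 1.16 (0.987 to 1.36), in which HOXB (164 and 62 counts) and HOXC (150 and 175 counts) went opposite ways. Groups 1 to 3 had 73 counts in RT-R and 37 in parental cells, a ratio of 1.77 (1.18 to 2.70).

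Paralogs at the same position could be compared directly in 8 pairs with counts in both lines, and in 2 of them the interval of the ratio of ratios excludes 1. HOXB8 over HOXC8 gave 23.2 (3.24 to 1026), on 13 and 1 counts of HOXB8. HOXB9 over HOXC9 gave 2.10 (1.15 to 3.80). HOXB4 over HOXD4 gave 1.10 (0.5503 to 2.22) and HOXB3 over HOXD3 gave 1.15 (0.408 to 3.30), so that at groups 3 and 4 a difference between clusters was not detectable at these counts. The intervals are not adjusted for the 8 pairs.

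The chromosomal surroundings of the clusters were then measured, since whole chromosome regions can differ between 2 lines. The 30 nearest measured genes around HOXB, 15 on each side, had a median log2 ratio of -0.16, and chromosome 17 as a whole had 0.01 over 762 genes. Relative to its neighbours, the log2 ratio of the HOXB sum was 1.35, against 1.19 without this subtraction. The nearest measured genes on the 2 sides were SNX11 (255 counts in RT-R and 238 in parental cells, log2 ratio -0.06) and CALCOCO2 (1141 and 928 counts, 0.14). Of the 30 neighbours, 2 were called higher, the homeobox genes DLX4 and DLX3, which lie next to each other.

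The neighbours of HOXC had a median log2 ratio of -0.23 and those of HOXD one of -0.18. After subtraction the HOXC sum stood at -0.04 and the HOXD sum at 0.76. The HOXC sum thus differed little from its surroundings.

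**Figure D4:**
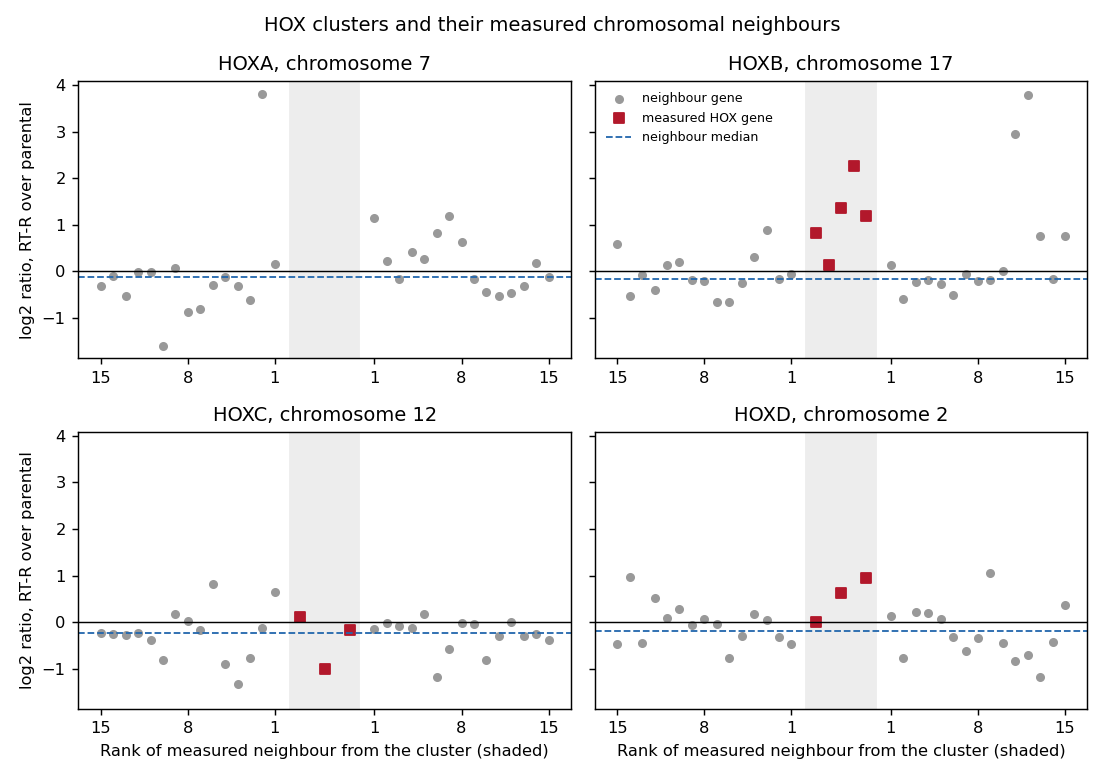
Log2 ratio, RT-R over parental, of the 15 nearest measured genes on each side of each cluster (grey points, by rank of distance), of the measured HOX genes (red squares in the shaded band, in chromosome order), and the neighbour median (dashed). The HOXB squares lie above the neighbour median of -0.16, the HOXC squares on both sides of theirs (-0.23), and the HOXD squares above theirs (-0.18).

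Other RNAs of the clusters were few. HAGLR, the antisense RNA of the HOXD cluster that starts beside HOXD1, had 131 counts in RT-R and 134 in parental cells, a ratio of 0.877 (0.684 to 1.12), and so was the most abundant HOX cluster RNA after HOXB9 in both lines. HAGLROS had 6 counts in RT-R and 1 in parental cells. HOXB-AS1 and HOXB-AS3 had at most 4 counts in a library. Of 25 such RNAs and cluster genes looked for, 12 had a row and 1 was measured.

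The clusters also carry microRNA genes, whose mature products a 3' tag library of polyadenylated RNA does not count. MIR196A1 lies between HOXB9 and HOXB13 and MIR10A beside HOXB4, and their products are known to repress HOX messages. The mature sequences (RefSeq, GRCh38.p14) are shown with the seed, bases 2 to 8, in capitals. Within MIR196A1, hsa-miR-196a-5p lies at chr17:48632532-48632553, and within MIR10A, hsa-miR-10a-5p lies at chr17:48579904-48579926, both on the minus strand. No other microRNA gene was looked up for its position or product.
hsa-miR-196a-5p: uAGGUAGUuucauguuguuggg
hsa-miR-10a-5p: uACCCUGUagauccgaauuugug

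Searched on the transcript strand, the seed complement of miR-196a-5p, ACTACCT, was found in the 3' untranslated region of 8 of 39 HOX genes, against 6.35% of 18841 protein-coding genes. HOXB7 and HOXC8 were the 2 measured genes among the 8, and their counts went opposite ways. The seed complement of miR-10a-5p, ACAGGGT, was found in 3 of 39 HOX genes, of which HOXB3 was measured, against 11.0% of all genes. The matches overlap no other motif searched, and untranslated regions of different genes differ in length. Only exact matches were searched for, so a gene without one, HOXB8 included, may still hold an imperfect site. The sites in the measured genes are shown with the seed complement in capitals, on the transcript strand.
HOXB7, miR-196a-5p: aacactgaaaaaatACTACCTa
HOXC8, miR-196a-5p, one site: cactcacaactctaACTACCTg
HOXC8, miR-196a-5p, other site: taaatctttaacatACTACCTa
HOXB3, miR-10a-5p: tgacttaacgtgaaaACAGGGTa

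Aligned without gaps, the HOXB7 site was complementary to miR-196a-5p at 13 of 22 bases, and each HOXC8 site at 12. A match is a stretch of letters and says nothing of binding in these cells.

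HOX proteins bind DNA together with TALE homeodomain partners of the PBX and MEIS families. Among 10 measured partner genes, 1 was called higher, 1 lower, and the median log2 ratio was -0.05. MEIS3 had 232 counts in RT-R and 18 in parental cells and was 11.6-fold higher (7.15 to 19.8). No call was made for PBX2, PBX3 or PBX4: PBX2 had 1009 counts in RT-R and 790 in parental cells, PBX3 545 and 401, and PBX4 96 in each. MEIS1 had 2 counts in RT-R and 0 in parental cells, and MEIS2 had 108 and 59, a ratio of 1.64 (1.18 to 2.29).

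Retinoic acid, acting through RAR and RXR receptors, switches on HOX genes from the 3' end of the clusters in the embryo. Of 11 measured genes of retinoid handling and related regulators, 5 were called higher and 1 lower, with a median log2 ratio of 0.44. Some of them, STRA6 and CYP26B1 included, reached the count minimum in RT-R alone, and no gene of the list did so in parental cells alone. This favours calls of higher and a median above 0, so neither is read as a shift of the list. ALDH1A3, which makes retinoic acid, had 430 counts in RT-R and 162 in parental cells and was 2.38-fold higher (1.98 to 2.87). DHRS3, a retinaldehyde reductase, had 220 counts in RT-R and 81 in parental cells and was 2.44-fold higher (1.88 to 3.18). STRA6, a receptor for retinol uptake, had 21 counts in RT-R and 0 in parental cells and was called higher. Its ratio was 6.28 with 3 counts taken for the parental 0, and its counting interval began at 4.67.

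CYP26B1, which degrades retinoic acid, had 47 counts in RT-R and 19 in parental cells and was 2.22-fold higher (1.28 to 4.002). With a pseudocount of 5 its log2 ratio was 0.98, short of 2-fold, so this call was lost. CRABP2, the retinoic acid carrier, went the other way, with 35 counts in RT-R and 103 in parental cells, 3.28-fold lower (2.22 to 4.96). No receptor was called: RARA had 187 counts in RT-R and 139 in parental cells, RARG 123 and 129, and RXRA 854 and 564. The CDX1, CDX2 and CDX4 genes, which encode caudal factors that set posterior HOX expression in the embryo, had no count in either line. Whether these differences bear on the HOXB counts was not tested.

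**Figure D5:**
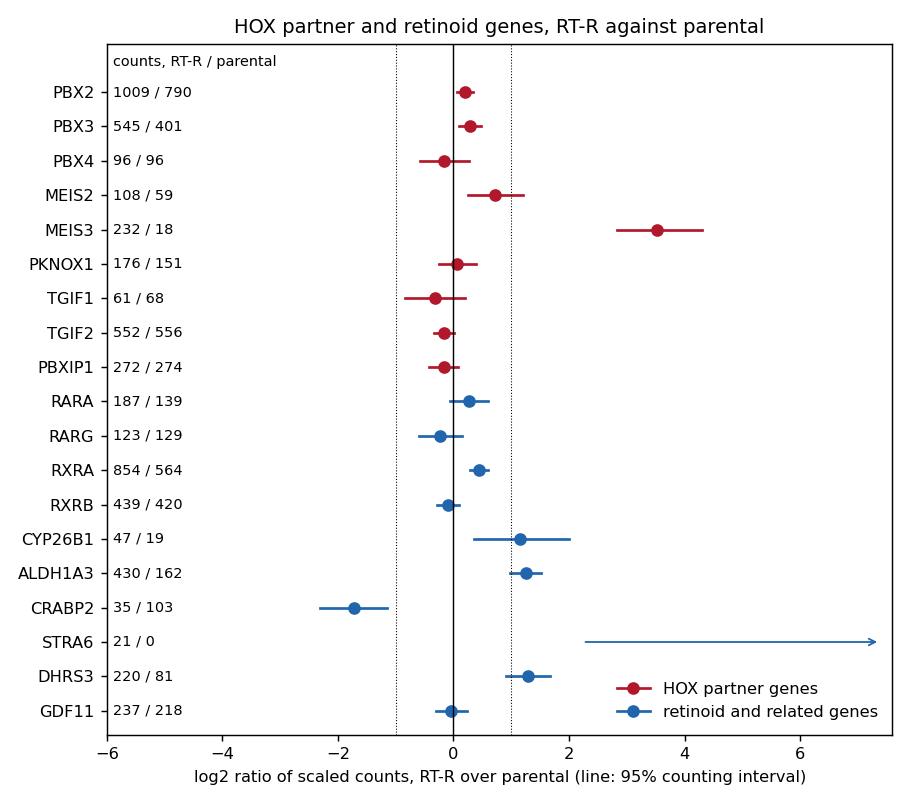
Log2 ratio of scaled counts, RT-R over parental, for 9 of the 10 measured HOX partner genes (red) and 10 of the 11 measured retinoid and related genes (blue), with 95% counting intervals as lines and the counts of RT-R and parental cells at the left. Dotted lines mark 2-fold. The arrow for STRA6 starts at the lower end of its interval, since its parental count is 0. MEIS3 lies far to the right of the other partners shown.

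Calls among chromatin regulators of the clusters are set beside those over all measured genes, 6.89% higher and 3.97% lower. Of 20 measured trithorax-type and related activators, 0 were called higher and 1 lower by the 2-fold rule, with a median log2 ratio of -0.01. KMT2A, the methyltransferase that maintains HOX expression, had 1833 counts in RT-R and 1390 in parental cells, and its partner MEN1 had 2203 and 2000. The gene called lower was KDM6A, a demethylase of the polycomb mark, with 55 counts in RT-R and 107 in parental cells, 2.17-fold lower (1.55 to 3.06). KDM6A is X-linked, and over the 424 measured genes of that chromosome the median gene was 1.72-fold lower in RT-R.

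Of 31 measured polycomb and related genes, 0 were called higher and 1 lower, with a median log2 ratio of -0.07. Over all measured genes the shares were 6.89% higher and 3.97% lower. PHF19, which guides the polycomb repressive complex to its targets, had 966 counts in RT-R and 1991 in parental cells, 2.30-fold lower (2.13 to 2.48). EZH2, the methyltransferase of that complex, had 680 counts in RT-R and 986 in parental cells, a ratio of 0.618 (0.560 to 0.683), short of 2-fold. The chromodomain gene CBX2 had 285 counts in RT-R and 141 in parental cells, a ratio of 1.81 (1.48 to 2.23), also short of 2-fold.

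Among related homeobox genes outside the clusters, 43 were looked for, 10 were measured, and 4 were called higher and 0 lower, with a median log2 ratio of 0.18 over the 10. Of the 4, DLX3, DLX4 and MSX2 had at most 100 counts in both libraries, a range in which 15.9% of all measured genes were called higher. These genes, and LBX2, reached the count minimum in RT-R alone. No gene of the list reached it in parental cells alone. This favours calls of higher and a median above 0, so neither is read as a shift of the list. DLX3 had 53 counts in RT-R and 3 in parental cells, a ratio of 15.8 (5.13 to 79.3), and DLX4 had 21 and 2, a ratio of 9.41 (2.30 to 82.8). MSX2 had 97 counts in RT-R and 12 in parental cells and was 7.25-fold higher (3.97 to 14.5). MNX1 had 464 counts in RT-R and 130 in parental cells and was 3.20-fold higher (2.63 to 3.92). The remaining measured genes included EN2 (56 counts in RT-R and 50 in parental cells) and HHEX (82 and 79), and 17 of the 43 had no count in either line.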

How the data were processed

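Each library was made with the Lexogen QuantSeq 3' tag kit from total RNA, per the labels' protocols. The authors deposited whole-number counts per gene symbol, not normalized. The submitters' processing notes name bedtools, Bowtie2, the build hg19 and bcl2fastq 2.20.0.422. For annotation, strand use and multi-mapping the entry is: not given in the sources used here.

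Rows of the same symbol were summed. Library sizes were scaled by TMM in edgeR 4.0.16 (R 4.3.3), used for scaling alone. Log2 ratios used a pseudocount of 0.5. Intervals are exact conditional 95% intervals (scipy 1.17.1), and the calculation was tested on simulated data. With 1 library per line, no model test can be fitted. A call needed 20 counts in a library, a 2-fold ratio and an interval without 1. Calls used the whole table.

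The members and gene lists were chosen with earlier results of these data known. Members with 20 counts are named with both counts. Of each list, at most 4 called genes were to be named; in the retinoid list 5 of the 6 are, and further genes named from the lists were chosen after their values were seen. Some genes and sequences are not reported here. Gene order came from RefSeq GRCh38.p14 by symbol, which placed 98.6% of measured genes. Transcripts came from GENCODE release 29. DESeq2 1.42.0 size factors, total counts and the upper quartile were alternative scalings.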

Additional observations from a re-analysis of the deposited data

How the results depend on the processing

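No paired analysis was possible because each line has 1 library. Under total, median-of-ratios and upper-quartile scaling the count of members called higher was 3 each time, and it was 5 with no count minimum (with HOXB8 and HOXD11), 1 with a minimum of 100 counts (HOXB9) and 1 at 4-fold (HOXB7). The count called lower, 1 for HOXC8, was 0 under total scaling, upper-quartile scaling, a pseudocount of 5, a minimum of 100 counts and 4-fold. Measured members numbered 24 with any count and 1 with a minimum of 100. The log2 ratio of the HOXD sum was 1.11 without HOXD4, against 0.57 with it, and that of groups 9 to 13 was 0.62 without HOXB9, against 1.15 with it; both follow from leaving out the member with most counts. The sums and medians of HOXB kept their direction under every alternative run, between 1.11 and 1.35. The HOXC median, -0.17, was 0.05 after subtraction of chromosomal neighbours and 0.11 with no count minimum. No called value of a single gene changed sign. Depth limits most members: the interval on 24 RT-R against 12 parental counts (HOXB3) spans more than 2-fold on either side.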
